A study of Homo sapiens with 12 samples.

Results

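The mitochondrial protein import genes are 37 nuclear genes picked by symbol and known role, with no threshold on a measured value. They include subunits of the TOM, SAM, TIM22 and TIM23 complexes and of the import motor. Small chaperones of the intermembrane space, the matrix peptidase, the matrix chaperonin and a few associated factors make up the rest. Other genes of the pathway, such as HSPA9 and MTX3, stand in a wider list given below. The count table held all 37 among its 59385 gene names, and 35 of them passed the filter on low counts, which 18166 genes passed in all. Their mRNA was followed in HEK293T, a human embryonic kidney cell line, carrying a doxycycline (Dox)-inducible short hairpin RNA, either a non-silencing control (shCtrl) or a hairpin against PRRC2B (shPRRC2B), an RNA-binding protein. Both lines received Dox for 36 h, and total RNA and the RNA of the heavy, polysome-bearing gradient fractions were sequenced in 3 biological replicates each, 12 libraries in all. Each hairpin was studied in 1 single-clone line, so that hairpin and clone cannot be told apart. The question put to these genes was whether translation efficiency (TE), the ratio of polysome RNA to total RNA of a gene, differs between the lines.

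Nearly all mitochondrial proteins are made in the cytosol and must be carried across the mitochondrial membranes. The TOM complex of the outer membrane is the entry gate. Behind it the routes part: SAM inserts beta-barrel proteins into the outer membrane, small TIM chaperones ferry hydrophobic proteins through the intermembrane space to TIM22, and TIM23 with its ATP-driven motor pulls precursors with a presequence into the matrix, where the presequence is cut off by a peptidase and the protein is folded by the chaperonin HSP60 and its cochaperonin HSP10.

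The libraries held 9855734 to 20837542 counts. PRRC2B, the target of the hairpin, measured 272, 313 and 258 CPM (read pairs of a gene relative to the library total, scaled by TMM) in the 3 shCtrl total RNA libraries and 97.9, 103 and 100.5 CPM in the 3 shPRRC2B ones, a log2 change of -1.49 ± 0.17 (standard error, as after every log2 value given with ±, adjusted p = 4.25e-06). KRT8, KRT18, VIM, NEFL, NEFM and PAX2, which HEK293T is known to express, were detected in every library, although 4 of the 6 differed between the lines in total RNA (KRT8 by -2.13, NEFM by -1.57 and VIM by 0.96 on the log2 scale, and NEFL, which also fell), and PTPRC, ALB and PECAM1, markers of blood, liver and vessel cells, stayed at or below 0.434 CPM. In both lines, polysome replicate 1 stood apart from the other 2 polysome replicates: per degree of freedom, the chi-square of the counts was 53.9 and 75.4 for the pairs with shCtrl replicate 1 and 22.3 for the remaining pair, and 38.2 and 37.9 against 13.9 in shPRRC2B. Among the import genes, shCtrl polysome replicate 1 was the highest of its 3 libraries in 6 of 7 genes with transcripts under 1000 nt and the lowest in 3 of 4 genes with transcripts of 4000 nt or more. This order was not shared by shPRRC2B polysome replicate 1. It was highest in 2 and lowest in 4 of the 7 short genes, and highest in 2 and lowest in 0 of the 4 long ones. Counts of called import genes are also given below without each of these libraries.

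TE changed in 9 of the 35 import genes tested, in both directions. The calls TE-up and TE-down, like all calls below, needed an adjusted p under 0.05 together with a log2 change of more than 0.5 in size. TE-up were HSPE1, TOMM7, TIMM8A, TIMM13 and MTX2, 5 genes (14.3%), where 10.7% of all genes tested were TE-up. TE-down were GRPEL2, TOMM70, SAMM50 and HSPD1, 4 genes (11.4%), beside 16.4% of all genes tested. The median log2 TE change of the 35 genes was 0.07, and that of all genes tested was -0.03, with 20 import genes above 0 and 15 below. The import genes had the lower of these medians once the length trend was taken out (0.0034, against 0.060 for all genes). They also had the lower one when every gene of at least 1 count was kept (0.023 against 0.035). TOM, SAM and the matrix group each held 1 gene of either kind, the intermembrane space held 2 TE-up genes and the motor held 1 TE-down gene. Without shCtrl polysome replicate 1 there were 7 TE-up and 5 TE-down import genes, beside 2532 and 3716 of all 18992 genes in that fit. Without shPRRC2B polysome replicate 1 there were 3 and 4, beside 1861 and 3541 of all 18883 genes. The count of TE-up import genes was likewise 3 in 7 further fits: those that lacked shCtrl total replicate 1, those that lacked replicate 2 or 3 of the shCtrl polysome group, those that lacked any of the 3 shPRRC2B total libraries, and that lacking shPRRC2B polysome replicate 3. In these 7 fits 1345 to 1629 of all genes were TE-up, where the main fit had 1935. TOMM7, HSPE1 and the 4 TE-down genes were called in each of the 12 fits that left out a library.

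**Figure D1:**
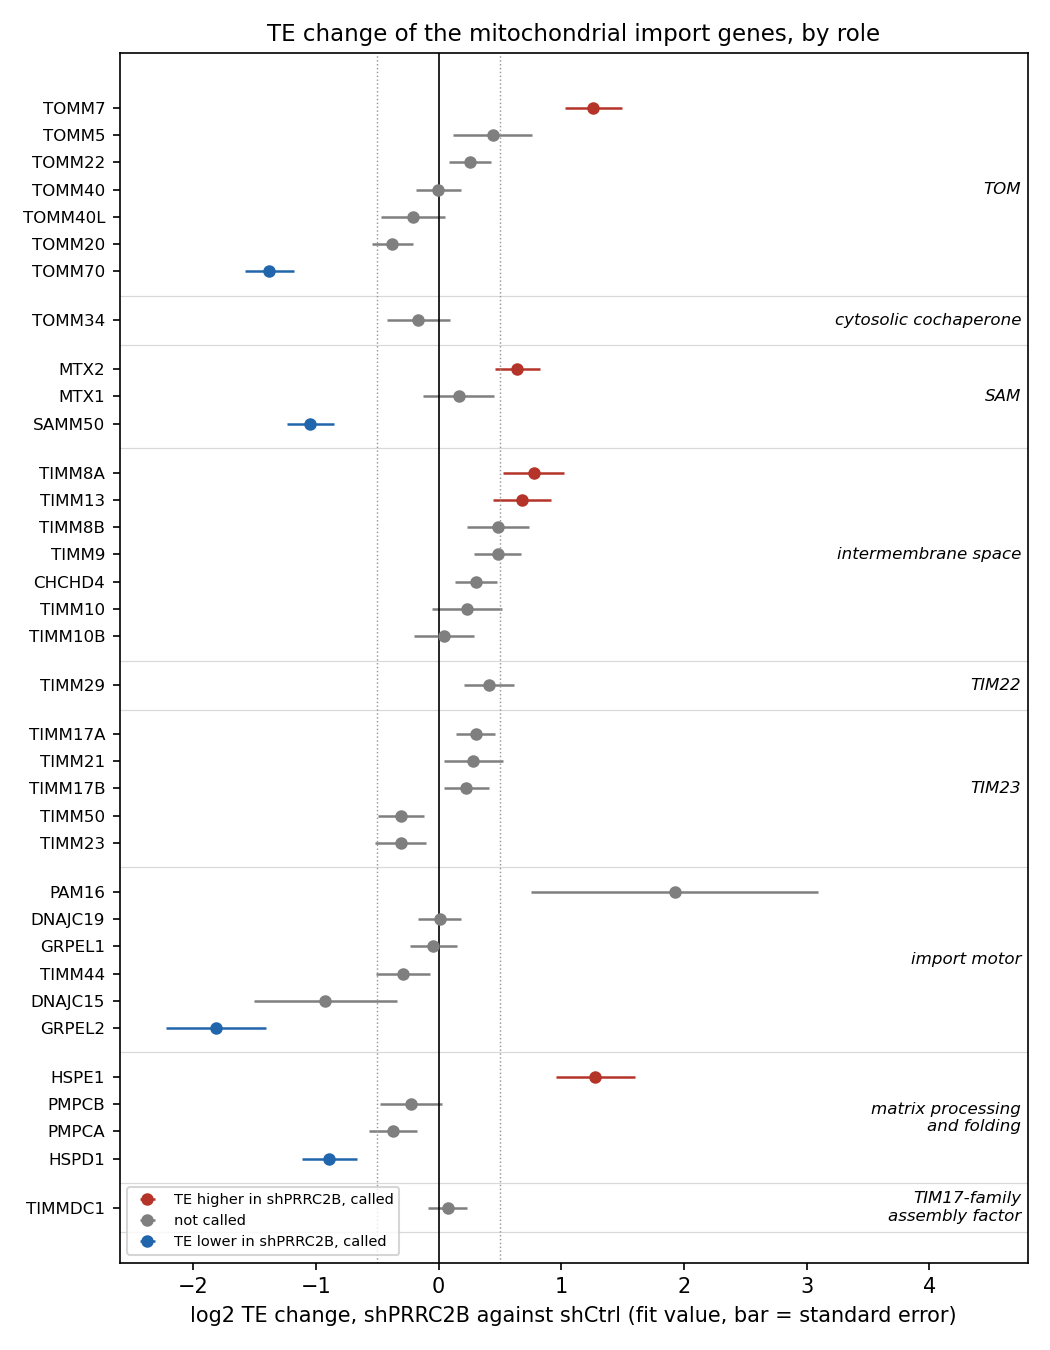
Log2 TE change (shPRRC2B against shCtrl, horizontal axis) of the 35 import genes tested, grouped by their place in the import pathway; bars are standard errors and dotted lines mark 0.5 and -0.5. All 7 genes of the intermembrane space lie above 0, while TOM, SAM and the matrix group each span from a TE-down to a TE-up gene, as from -1.38 for TOMM70 to 1.26 for TOMM7. Of all 18166 genes tested, 8782 lay above 0.

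In the TOM complex, the small subunit TOMM7 was TE-up and the receptor TOMM70 was TE-down. TOMM7 (chr7:22812628-22822849, minus strand; positions here and below are those of the gene on GRCh38) encodes a small subunit that affects the assembly state of the complex. Its total RNA measured 61.7, 73.6 and 54.4 CPM in the shCtrl replicates and 28.2, 23.2 and 25.8 CPM in the shPRRC2B replicates. In polysomes it measured 718, 477 and 499 CPM in shCtrl and 507, 516 and 625 CPM in shPRRC2B. Total RNA thus parted fully, with each shPRRC2B library below each shCtrl library, whereas the polysome values overlapped. The log2 TE change of TOMM7 was 1.26 ± 0.23 (adjusted p = 0.000875). TOMM7 has 1 near copy elsewhere in the genome, 95.8% identical over 98.4% of its transcript, and read pairs placed in both were not counted.

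TOMM70 (chr3:100363431-100401089, minus strand), the receptor that takes carrier precursors from cytosolic chaperones, went the other way. Its total RNA was 107, 111 and 108 CPM in shCtrl and 79.4, 77.8 and 80.7 CPM in shPRRC2B, and its polysome RNA was 53.2, 69.4 and 79.3 CPM and 20.3, 20.4 and 15.8 CPM. The lines did not overlap in either fraction, and the gap was wider in polysomes, where the log2 change was -1.83 ± 0.15 (adjusted p = 1.01e-07) against -0.45 ± 0.14 (adjusted p = 0.0171) in total RNA. The log2 TE change of TOMM70 was -1.38 ± 0.20 (adjusted p = 0.000154). The other receptors and the channel were not called for TE. TOMM20, the presequence receptor, had a log2 TE change of -0.38 ± 0.17, TOMM22, the central receptor, one of 0.25 ± 0.17, and TOMM40, which forms the pore, one of -0.0033 ± 0.18. Polysome RNA taken alone nevertheless fell for TOMM20 (-0.59 ± 0.12) and rose for TOMM22 (0.71 ± 0.12). The pore paralog TOMM40L (-0.21 ± 0.26), the small subunit TOMM5 (0.44 ± 0.32) and the cytosolic cochaperone TOMM34 (-0.17 ± 0.26) were not called either. Other gene models overlap 81.9% of the TOMM5 transcript. TOMM34 scattered in shCtrl polysomes, with 60.0, 123 and 85.5 CPM against 111, 104 and 91.3 CPM in shPRRC2B, and in total RNA its values of 56.5, 55.0 and 51.5 CPM in shCtrl and 64.1, 73.6 and 71.7 CPM in shPRRC2B did not overlap but missed the threshold (adjusted p = 0.136). TOMM6 had 0 counts in all 12 libraries, which allows 0.107 to 0.333 CPM per library (3 counts). Its exons are covered in full by another gene model on the same strand, and pairs that touch more than 1 gene were not counted. Whether that overlap accounts for the zeros was not tested.

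In the SAM complex, the barrel SAMM50 was TE-down and its cytosol-facing partner MTX2 was TE-up. SAMM50 (chr22:43955442-44010531, plus strand) measured 49.7, 52.1 and 51.4 CPM in shCtrl total RNA and 79.6, 80.8 and 76.5 CPM in shPRRC2B total RNA, a rise of 0.63 ± 0.14 (adjusted p = 0.00207) on the log2 scale with no overlap. Its polysome RNA was 92.6, 122 and 141 CPM in shCtrl and 80.3, 97.2 and 88.8 CPM in shPRRC2B, overlapping at the lowest shCtrl library, and the log2 TE change was -1.05 ± 0.20 (adjusted p = 0.00092). MTX2 (chr2:176269395-176338025, plus strand) measured 27.5, 28.4 and 27.6 CPM and 25.6, 24.4 and 25.1 CPM in total RNA of shCtrl and shPRRC2B, and 71.0, 96.5 and 69.3 CPM and 107, 117 and 108 CPM in polysomes. The shPRRC2B libraries lay just below the shCtrl ones in total RNA and above them in polysomes. Neither fraction passed the thresholds alone, and the log2 TE change was 0.64 ± 0.18 (adjusted p = 0.0159). That call was lost without shCtrl polysome replicate 3 (0.50, adjusted p = 0.0541) and without shPRRC2B total replicate 2 (0.61, adjusted p = 0.0501). MTX1, the paralog of MTX2, had a log2 TE change of 0.16 ± 0.29 and was not called. MTX1 has 1 near copy on the main chromosomes and 2 on alternate contigs, the closest 99.3% identical over 55.0% of its transcript.

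The 7 genes of the intermembrane space all had a log2 TE change above 0, with a median of 0.48, and 2 of them were TE-up. The order ran from TIMM10B (0.04 ± 0.24) through TIMM10 (0.23 ± 0.29), CHCHD4 (0.30 ± 0.17), TIMM9 (0.48 ± 0.19) and TIMM8B (0.49 ± 0.25) to TIMM13 and TIMM8A. Of all 18166 genes tested, 8782 had a log2 TE change above 0. Transcripts of these 7 genes measure 668 to 1664 nt, except that of TIMM10B at 2788 nt. The median of all genes was 0.48 under 1000 nt, 0.28 from 1000 to under 2000 nt and -0.04 from 2000 to under 4000 nt. TIMM9 was TE-up under 4 alternatives (0.54 to 0.56, adjusted p of 0.03 to 0.0406). With the trend on transcript length removed TIMM10 lay at -0.21, and TIMM10B turned negative in some of the fits that left out a library, down to -0.23. TIMM8A and TIMM13 form a chaperone complex with each other, as TIMM9 and TIMM10 do, and CHCHD4 is the oxidoreductase that traps these small proteins in the intermembrane space by disulfide bonds.

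TIMM8A (chrX:101345661-101348742, minus strand) measured 29.1, 25.4 and 24.7 CPM in shCtrl total RNA and 16.6, 18.7 and 16.5 CPM in shPRRC2B total RNA, all 3 below. Its polysome RNA overlapped between the lines, at 179.6, 102 and 116 CPM in shCtrl and 162, 128 and 154 CPM in shPRRC2B, and the log2 TE change was 0.77 ± 0.25 (adjusted p = 0.0269). TIMM13 (chr19:2425625-2427586, minus strand) showed the reverse. Its total RNA overlapped, at 72.6, 86.5 and 58.8 CPM and 96.1, 89.9 and 85.0 CPM, while its polysome RNA went from 878, 597 and 572 CPM in shCtrl to 1314, 1308 and 1441 CPM in shPRRC2B, and the log2 TE change was 0.68 ± 0.24 (adjusted p = 0.0416). The partners of this chaperone reached a TE-up call through different fractions, and each call depended on single libraries. TIMM13 lost its call in 10 of the 12 fits that left out a library, the exceptions being those that lacked replicate 3 of shCtrl total RNA or replicate 1 of shCtrl polysome RNA, at log2 values of 0.50 to 0.71 and adjusted p of 0.0661 to 0.139. TIMM8A lost its call in 7, in which the library left out was replicate 1 of shCtrl total RNA, replicate 2 or 3 of shCtrl polysome RNA, or replicate 1 or 3 of either shPRRC2B fraction, at log2 values of 0.56 to 0.74 and adjusted p of 0.0666 to 0.0999.

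TIMM8B stayed below the thresholds although its polysome RNA parted fully, with 817, 469.7 and 460.3 CPM in shCtrl and 958, 873 and 991 CPM in shPRRC2B. Its total RNA was 29.4, 30.4 and 27.6 CPM and 34.8, 33.6 and 32.5 CPM. The first shCtrl polysome library lay far above the other 2, and without it TIMM8B was TE-up (0.77, adjusted p = 0.00067). TIMM10B, the lowest of the group, measured 19.7, 16.8 and 17.2 CPM and 21.7, 20.2 and 23.6 CPM in total RNA, and 39.9, 38.1 and 49.9 CPM and 68.3, 40.8 and 51.2 CPM in polysomes. CHCHD4 fell in total RNA, from 20.7, 23.3 and 23.4 CPM to 14.8, 13.2 and 13.5 CPM (-0.70 ± 0.12, adjusted p = 0.000353), and was lower in polysomes as well (-0.39 ± 0.12, below the size threshold), and its TE was not called. Some of these counts are less certain. On the opposite strand, exons of NKAPD1 overlap 45.0% of the TIMM8B transcript and exons of TMPRSS9 overlap 20.1% of that of TIMM13, the counting did not use strand, exons of other genes likewise overlap 30.0% of the TIMM9 transcript, and TIMM8A has a near copy 96.7% identical over 98.5% of its transcript.

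The TIM22 and TIM23 genes among the 35 tested were not called for TE. In TIM22, the carrier translocase, TIMM29 measured 19.2, 24.3 and 20.7 CPM and 18.0, 20.4 and 21.5 CPM in total RNA of shCtrl and shPRRC2B, and 35.9, 41.3 and 34.6 CPM and 51.3, 47.5 and 39.5 CPM in polysomes, with overlap in both and a log2 TE change of 0.41 ± 0.21. TIMM22, the channel itself, had 0 counts in all 12 libraries, with the same limits as TOMM6. Identical copies of its transcript lie on 2 alternate contigs of the genome, pairs placed more than once were not counted, and whether the alignment used those contigs was not tested. In TIM23, the presequence translocase, TIMM17A had the highest log2 TE change (0.30 ± 0.16) and TIMM23 the lowest (-0.31 ± 0.21), beside TIMM50 (-0.31 ± 0.19), TIMM17B (0.22 ± 0.18) and TIMM21 (0.28 ± 0.24). TIMM21 was TE-up only in the fit without shCtrl polysome replicate 1 (0.53, adjusted p = 0.0205).

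TIMM23, the channel subunit, was nonetheless higher in both fractions of shPRRC2B. Its total RNA rose from 38.8, 35.5 and 39.9 CPM to 80.1, 71.2 and 73.4 CPM (0.98 ± 0.15, adjusted p = 0.000117), and its polysome RNA from 177, 157 and 111 CPM to 261, 209.6 and 236 CPM (0.66 ± 0.15, adjusted p = 0.00157), without overlap. The polysome call was lost without shCtrl polysome replicate 3 (0.39) and without shPRRC2B polysome replicate 1 (0.47), both under the size threshold. Without shCtrl polysome replicate 3, TIMM23 was TE-down (-0.53, adjusted p = 0.0467). A near copy matches 54.9% of its transcript at 98.3% identity, and pairs placed in both were not counted. TIMM17A, which lines the channel with TIMM23, measured 52.0, 56.2 and 56.5 CPM and 53.7, 56.6 and 54.1 CPM in total RNA, and 269, 244 and 230.1 CPM and 326, 296 and 292 CPM in polysomes. Only the polysome values parted, with the shPRRC2B libraries higher and a log2 change of 0.30 ± 0.11, under the size threshold. TIMMDC1, a relative of TIMM17 that acts in the assembly of respiratory complex I, was lower in both fractions and close to 0 for TE (0.07 ± 0.16). It measured 60.0, 64.5 and 61.4 CPM and 42.6, 44.0 and 46.2 CPM in total RNA, and 368, 392 and 388 CPM and 257, 296 and 310.2 CPM in polysomes, and the lines did not overlap. Exons of CD80 on the opposite strand overlap 33.5% of its transcript.

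In the import motor, GRPEL2 was TE-down and its paralog GRPEL1 was not called. Both encode nucleotide exchange factors of mortalin, the HSP70 of the matrix. GRPEL2 (chr5:149345430-149354583, plus strand) measured 43.5, 40.4 and 37.7 CPM and 40.3, 38.4 and 43.8 CPM in total RNA of shCtrl and shPRRC2B, which overlapped. In polysomes it measured 28.9, 63.7 and 63.0 CPM and 16.7, 20.6 and 6.94 CPM, with each shPRRC2B library below each shCtrl library and scatter within both lines. The log2 TE change of GRPEL2 was -1.82 ± 0.41 (adjusted p = 0.00345), the lowest of the 35 genes. GRPEL1 was higher in both fractions, by 0.44 ± 0.14 in total RNA and 0.40 ± 0.14 in polysomes, under the size threshold in each, and had a log2 TE change of -0.04 ± 0.19. TIMM44, which docks the motor to TIM23, had one of -0.29 ± 0.22 and was TE-down only without shCtrl polysome replicate 1 (-0.53, adjusted p = 0.00848), among the fits that left out a library.

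The J-proteins that stimulate mortalin were far apart in level. DNAJC19 had a log2 TE change of 0.01 ± 0.17. DNAJC15 was near the limit of detection in total RNA, at 0.830, 0.548 and 0.760 CPM and 0.560, 0.537 and 0.656 CPM, and fell in polysomes from 5.53, 2.71 and 3.33 CPM to 1.98, 1.24 and 1.81 CPM (-1.20 ± 0.39, adjusted p = 0.019). That polysome call was lost without shCtrl polysome replicate 1 (adjusted p = 0.0797) and without shPRRC2B polysome replicate 2 (adjusted p = 0.0545). PAM16, the inhibitory partner of the J-proteins, had the highest fitted log2 TE change (1.92 ± 1.17, adjusted p = 0.238) and the least certain. It had 13, 12 and 6 counts in shCtrl total RNA and 2, 0 and 2 in shPRRC2B total RNA, that is 0.491, 0.438 and 0.415 CPM and 0.0933, 0 and 0.0874 CPM, and 1.03, 0.326 and 3.11 CPM and 0.344, 1.15 and 0.856 CPM in polysomes. CORO7-PAM16, a readthrough gene that had 0 counts in all libraries, covers 83.1% of the PAM16 transcript on the same strand, and shared pairs were not counted. An identical copy of the PAM16 transcript also lies on 1 alternate contig of the genome, and whether the alignment used that contig was not tested.

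In the matrix, the chaperonin HSPD1 was TE-down and its cochaperonin HSPE1 was TE-up. HSPD1 (chr2:197486584-197516737, minus strand), which encodes HSP60, measured 746, 745 and 754 CPM in shCtrl total RNA and 909, 924 and 844 CPM in shPRRC2B total RNA. Its polysome RNA was 542, 702 and 758 CPM and 330.3, 508 and 449 CPM. The shPRRC2B libraries lay above the shCtrl ones in total RNA and below them in polysomes. The log2 TE change of HSPD1 was -0.89 ± 0.22 (adjusted p = 0.00702), of which the fall in polysome RNA passed the thresholds alone (-0.64 ± 0.16, adjusted p = 0.00345). HSPE1 (chr2:197500140-197503449, plus strand), which encodes HSP10, measured 43.2, 46.2 and 48.9 CPM and 27.3, 23.5 and 21.0 CPM in total RNA of shCtrl and shPRRC2B, all 3 lower. Its polysome RNA overlapped, at 444, 263 and 190.1 CPM and 454, 305 and 373 CPM, with the first replicate highest in both lines. The log2 TE change of HSPE1 was 1.28 ± 0.32 (adjusted p = 0.00709), and it was 1.64 without shCtrl polysome replicate 1. Near copies of both genes exist, 2 of each, the closest 97.4% identical over the whole HSPD1 transcript and 96.4% identical over 84.2% of that of HSPE1, and pairs placed in more than 1 of them were not counted. The readthrough gene HSPE1-MOB4, at 0.086 CPM or less in every library, covers 34.5% of the HSPE1 transcript. The subunits of the processing peptidase, PMPCA (-0.37 ± 0.20) and PMPCB (-0.23 ± 0.25), were not called for TE.

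**Figure D2:**
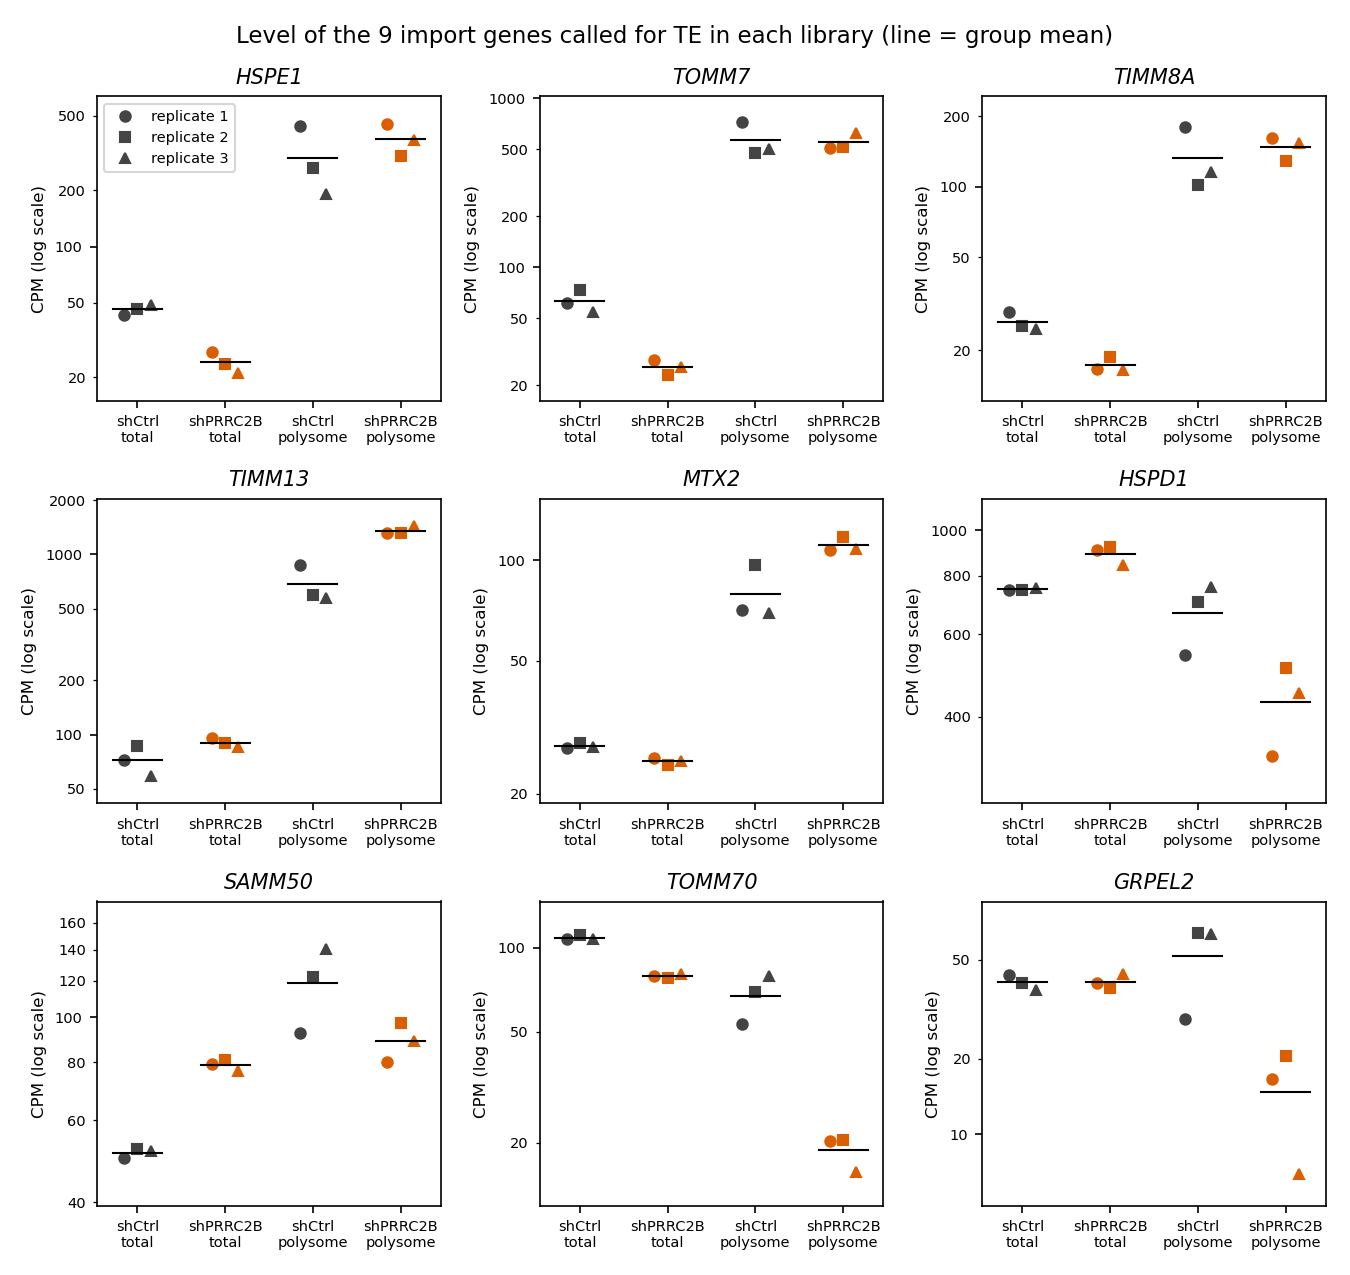
Level of the 9 import genes called for TE in every library, in CPM on a log axis, for total RNA and polysome RNA of shCtrl (grey) and shPRRC2B (orange); circles, squares and triangles are replicates 1, 2 and 3 and lines are means. TOMM70, GRPEL2 and HSPD1 are lower in shPRRC2B polysomes without overlap, TIMM13 and MTX2 are higher there without overlap, and TOMM7, HSPE1 and TIMM8A are lower in shPRRC2B total RNA while their polysome values overlap.

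The RefSeq starts of HSPD1 (197500274, minus strand) and HSPE1 (197500379, plus strand) lie head to head on chromosome 2, with 104 bases between them, so that their promoter windows share sequence. The GENCODE 44 spans given above reach beyond these starts and overlap each other. The windows of RefSeq (GRCh38.p14, 250 bases before to 50 after each start) were searched on both strands for GCGC, any 1 base and then TGCGC, the core letters bound by NRF1, a factor known to drive many nuclear genes of mitochondria. Of 35116 windows, 2031 (5.78%) held it. Of the 37 import genes 34 had a window, and 10 of these (29.4%) held it (TOMM5, TIMM8B and GRPEL1 had none to search): TOMM7, TOMM20, TOMM40, TOMM34, CHCHD4, TIMM29, PAM16, GRPEL2, HSPD1 and HSPE1. The 5.78% is a share of windows. The 29.4% is a share of genes with a match in any of their windows, so the units differ. The matches of TOMM7 and of the head-to-head pair are shown, since these are called genes whose match lies before the start, each read along its own gene's strand with the matching letters in capitals.
TOMM7 (chr7:22822844-22822873, minus strand): gccgtgtgtgGCGCCTGCGCacctcctttc
HSPE1 (chr2:197500322-197500351, plus strand): tggggcgagcGCGCCTGCGCgctgggtgat
HSPD1 (chr2:197500322-197500351, minus strand): atcacccagcGCGCAGGCGCgctcgcccca
The match of HSPD1 and that of HSPE1 are the same bases read from either strand. HSPD1 was TE-down and HSPE1 TE-up. Of the 10 genes with a match, 2 were TE-up and 2 TE-down, and of the 22 tested genes with a window and no match, 3 were TE-up and 2 TE-down. A match is a run of letters and not a measured binding site, and whether it bears on TE was not tested.

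Taken by fraction, the calls of either direction were spread over different genes. In total RNA 2 import genes rose, TIMM23 and SAMM50 (14.9% of all genes tested rose), and 5 fell, TOMM7, HSPE1, CHCHD4, TIMM8A and PAM16 (14.1% fell). In bulk RNA, fewer cells that hold an mRNA and less of it per cell cannot be told apart. The 3 shPRRC2B libraries lay above the 3 shCtrl ones in 10 import genes, beside 34.1% of all genes, and below them in 12, beside 28.8% of all genes. The median log2 change was -0.02, and that of all genes tested was 0.04. TIMM8A lost its call without shCtrl total replicate 1, shPRRC2B total replicate 1 or shPRRC2B total replicate 3 (-0.58 to -0.54, adjusted p of 0.0533 to 0.0664). PAM16 lost it without shCtrl total replicate 1 or 2, or without any of the shPRRC2B total replicates (adjusted p of 0.0515 to 0.115). Without shPRRC2B total replicate 1 the import genes that fell were 3, beside 1916 of all 18863 genes in that fit. In each fit that lacked a polysome library, whichever it was, 2 import genes rose and 7 fell. Over all genes these fits gave 2340 to 2621 that rose and 2835 to 3194 that fell.

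In polysome RNA 5 import genes rose, TIMM13, TOMM22, TIMM8B, TIMM23 and TIMM21 (18.4% of all genes tested), and 5 fell, TOMM70, GRPEL2, DNAJC15, HSPD1 and TOMM20 (21.4% of all). The shPRRC2B libraries lay above the shCtrl ones in 9 import genes, beside 21.6% of all genes, and below them in 9, beside 21.5%. The median log2 change was 0.09 in the import genes and -0.01 in all genes. Without shCtrl polysome replicate 3, 2 import genes rose and 10 fell, with a median of -0.01 beside -0.06 for all genes. Of all 19002 genes in that fit, 2548 rose and 4208 fell. Without shCtrl polysome replicate 1, 7 import genes rose and 8 fell (3353 and 4647 of all 18992), with a median of -0.02 beside -0.04 for all genes. Without shPRRC2B polysome replicate 1, 4 rose and 7 fell (2718 and 4507 of all 18883), with a median of -0.10 beside -0.11 for all genes. The import genes that fell were 8 without shPRRC2B polysome replicate 3, beside 4004 of all 18907 genes. TIMM8B lost its call without shCtrl polysome replicate 2 or 3 (0.45 and 0.44), as TIMM21 did (0.42 and 0.43) and also without shPRRC2B polysome replicate 3 (0.49). TIMM21, a TIM23 subunit that meets TOM and the respiratory chain, measured 134, 80.5 and 81.4 CPM in shCtrl polysomes and 155, 140.0 and 171 CPM in shPRRC2B polysomes. The TE change is the polysome change less the total RNA change, so these comparisons share their libraries. Of the 5 TE-up genes, TIMM13 passed the thresholds by polysome RNA only, TOMM7, HSPE1 and TIMM8A by total RNA only, and MTX2 by neither. Of the 4 TE-down genes, TOMM70, GRPEL2 and HSPD1 passed by polysome RNA only and SAMM50 by total RNA only.

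Within each line, most import genes were higher in polysome RNA than in total RNA after TMM scaling. In shCtrl 31 of the 35 genes were higher in polysomes (32.5% of all genes tested) and 2 were lower, TOMM70 and PMPCA (39.8% of all). In shPRRC2B 28 were higher (36.6% of all) and 4 lower, TOMM70, GRPEL2, HSPD1 and PMPCA (42.3% of all). The median log2 ratio was 1.56 in shCtrl and 1.65 in shPRRC2B, and -0.22 over all genes in both. These ratios are relative to the other genes and depend on the scaling. When libraries were scaled by total counts the median of all genes moved to -1.22 and -1.16, the import genes split into 18 higher and 4 lower in shCtrl and 19 and 6 in shPRRC2B, and 8 import genes changed sign in each line. Such a scaling moves all genes alike, and the import genes lay 1.78 above the median of all genes in shCtrl and 1.87 above it in shPRRC2B. With the length trend removed these distances were 0.93 and 0.99, and 21 import genes were higher in shCtrl and 20 in shPRRC2B. Of all 18166 genes in that fit, 5372 were higher in shCtrl and 6279 in shPRRC2B. Without shCtrl polysome replicate 1 there were 31 higher and 2 lower genes in shCtrl and 26 and 4 in shPRRC2B, as there were without shPRRC2B polysome replicate 1. The call of PMPCA in shCtrl (-0.50 ± 0.14) was lost without shCtrl total replicate 1 (-0.46) and without shCtrl polysome replicate 2 (-0.41) or 3 (-0.45), which left 1 lower gene.

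In shCtrl the highest ratios belonged to TIMM8B of the intermembrane space and DNAJC19 of the motor. TIMM8B had a log2 ratio of 4.32 ± 0.20 in shCtrl and 4.81 ± 0.20 in shPRRC2B. DNAJC19 had 4.14 ± 0.14 and 4.15 ± 0.14, from 20.6, 18.3 and 18.0 CPM in shCtrl total RNA to 356, 324 and 325 CPM in shCtrl polysomes. At the other end, TOMM70 had -0.69 ± 0.14 in shCtrl and -2.07 ± 0.15 in shPRRC2B. GRPEL2 and HSPD1 were not called in shCtrl (0.35 ± 0.28 and -0.17 ± 0.16) and were lower in polysomes in shPRRC2B (-1.47 ± 0.30 and -1.06 ± 0.16).

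**Figure D3:**
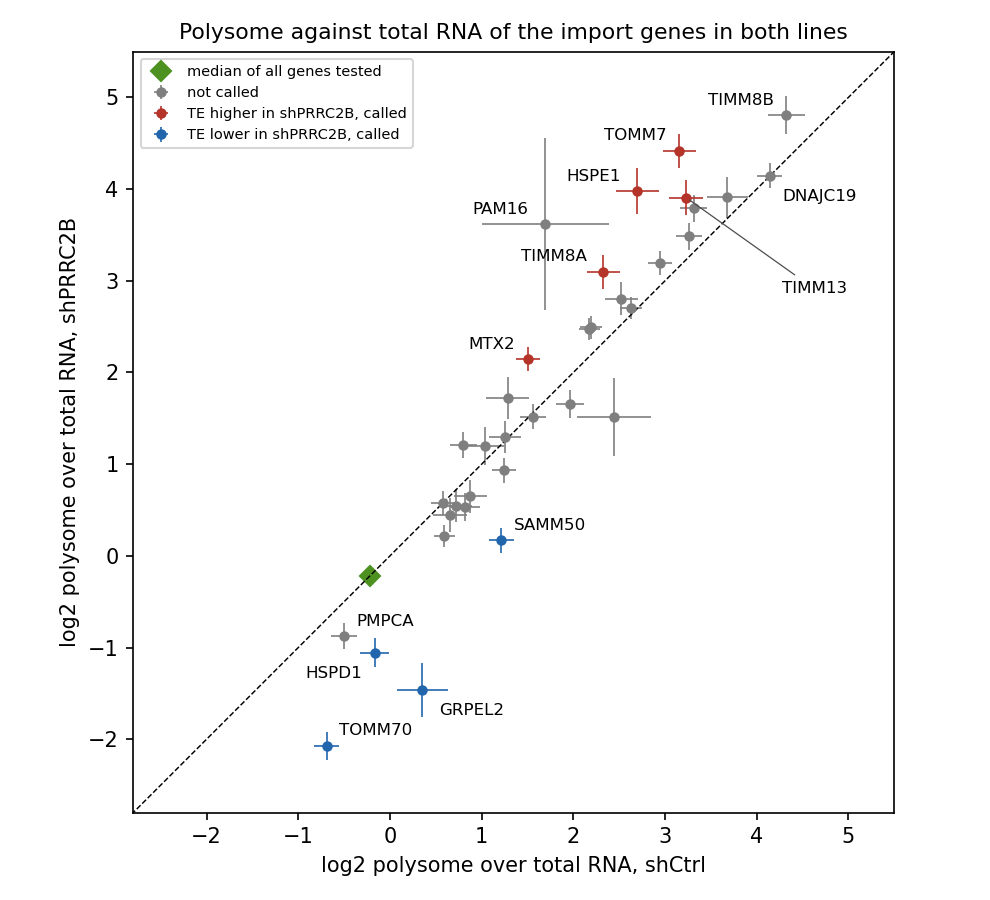
Log2 ratio of polysome to total RNA of the 35 import genes in shCtrl (horizontal axis) and shPRRC2B (vertical axis), with standard errors; the dashed diagonal marks equal ratios and the diamond the median of all genes tested. Most genes lie above 0 on both axes, TE-up genes such as TOMM7 (3.16 and 4.42) lie above the diagonal, and TE-down genes such as TOMM70 (-0.69 and -2.07) lie below it.

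Import genes with short transcripts had higher TE changes than those with long ones. Length here is that of the GENCODE 44 canonical transcript. Spearman's rho between length and log2 TE change was -0.74 over the 35 import genes and -0.41 over the 15762 genes tested with a known length, as a description, since all genes share the same libraries. The 7 import genes under 1000 nt had a median log2 TE change of 0.49, the 14 from 1000 to under 2000 nt one of 0.23, the 10 from 2000 to under 4000 nt one of -0.12, and the 4 of 4000 nt or more one of -1.15. The medians of all genes in these classes were 0.48, 0.28, -0.04 and -0.51. TOMM7 (434 nt) and HSPE1 (557 nt) stood at the short end, and GRPEL2 (4020 nt), TOMM70 (4100 nt), TIMM50 (5037 nt) and DNAJC15 (7459 nt) at the long end. SAMM50 (1692 nt) and HSPD1 (2245 nt) lay well below the median of their class.

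Removing the trend of the counts on length from each library left 1 TE-up gene, TOMM7 (0.76), and 5 TE-down genes, the same 4 and TIMM23 (-0.62, adjusted p = 0.0463). Of all 18166 genes in that fit, 1989 were TE-up and 1710 TE-down, where the main fit had 1935 and 2981. HSPE1 (0.82, adjusted p = 0.0548), MTX2 (0.36), TIMM8A (0.46) and TIMM13 (0.46) were no longer called. TOMM70 (-1.06), GRPEL2 (-1.52), SAMM50 (-0.96) and HSPD1 (-0.79) remained.

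**Figure D4:**
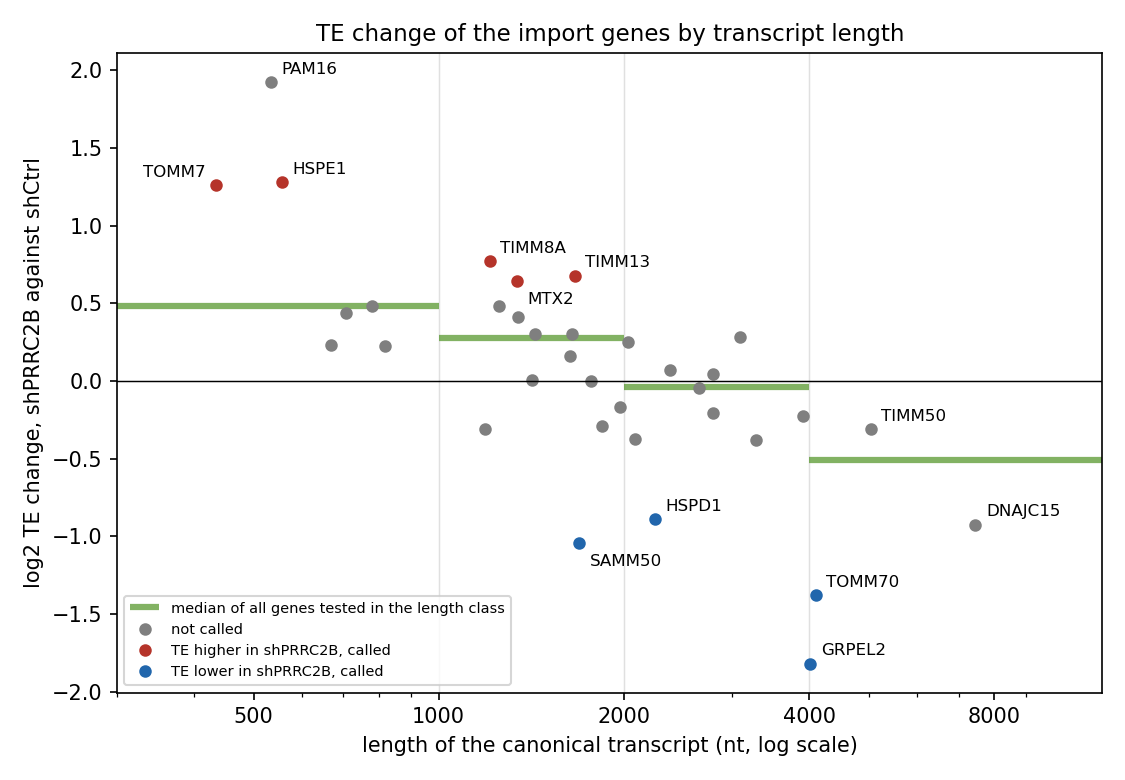
Log2 TE change of the 35 import genes (vertical axis) against the length of the canonical transcript in nt (horizontal axis, log scale), with the median of all genes tested in 4 length classes. Import genes of 4000 nt or more lie at or below -0.31, those under 1000 nt lie above 0, and SAMM50 and HSPD1 lie below the medians of their classes.

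Levels were compared between genes only per length. In shCtrl total RNA HSPD1 was highest at 333 CPM per kb, followed by TOMM20 (148), TOMM7 (146), HSPE1 (82.8) and TIMM17B (80.3), and the lowest were PAM16 (0.840) and DNAJC15 (0.0955). In shPRRC2B total RNA TOMM7 measured 59.3 CPM per kb and HSPE1 43.0 CPM per kb, while HSPD1 measured 397 CPM per kb.

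A wider list of 27 import-related genes that are not in the group above was measured in the same fit, and 26 were tested. The list was chosen with earlier results of these data known, so its shares are a description only. Its genes were not followed through the alternatives, and no length trend was removed for them. TE-up were 5 (19.2%, beside 10.7% of all genes tested): the inner membrane protein ROMO1 (1.08 ± 0.26), GFER (0.93 ± 0.22), the sulfhydryl oxidase that recharges CHCHD4, and the MICOS subunits CHCHD6 (0.97 ± 0.19), MICOS10 (0.88 ± 0.28) and MICOS13 (0.99 ± 0.21). TE-down were 8 (30.8%, beside 16.4%): HSPA9, which encodes mortalin (-0.86 ± 0.17), AIFM1, which binds CHCHD4 (-0.77 ± 0.17), the presequence protease PITRM1 (-0.88 ± 0.20), MTX3 (-1.48 ± 0.24), the MICOS subunits IMMT (-0.75 ± 0.15) and APOOL (-1.04 ± 0.29), and the cytosolic chaperones HSP90AA1 (-1.17 ± 0.34) and HSP90AB1 (-1.20 ± 0.30), which hand precursors to TOMM70. Transcripts of these TE-up genes measured 366 to 3723 nt and those of the TE-down genes 2222 to 7931 nt. The median log2 TE change of the 26 was 0.09. In total RNA 5 of them rose (19.2%, beside 14.9% of all genes) and 2 fell (7.69%, beside 14.1%). In polysome RNA 6 rose (23.1%, beside 18.4%) and 6 fell (23.1%, beside 21.4%). HSPA9 rose in total RNA, from 297, 296 and 301 CPM to 464, 478 and 460.0 CPM, as SAMM50 did, and in polysomes its values were 140.2, 128 and 139.8 CPM and 128, 125 and 99.3 CPM. MTX3, the remaining metaxin, fell in polysomes from 12.4, 14.3 and 18.0 CPM to 5.67, 5.44 and 3.52 CPM, whereas MTX2 was TE-up and MTX1 was not called.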

How the data were processed

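The authors deposited raw counts of read pairs per gene name of GENCODE 38 for 12 libraries, made from poly(A)-enriched total and pooled polysome RNA. Per the labels, reads were trimmed with Trimmomatic 0.36, aligned to GRCh38 with HISAT2 2.1.0 and counted with featureCounts of Subread 2.0.1. The counting options given in the methods name neither multiple placements, multiple genes nor strand. Statements that shared pairs were not counted, or that strand was not used, rest on the program's defaults for those options.

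Groups came from the sample titles. The analysis used edgeR 4.0.16 under R 4.3.3, with filterByExpr (minimum count 10), TMM over all libraries and the quasi-likelihood test over the 4 groups without a block. Adjusted p are Benjamini-Hochberg values over all genes tested in the fit concerned (18166 unless an alternative is named), and a call needed one under 0.05 with a log2 change beyond 0.5 in size, as in the study. Same-numbered replicates were checked for shared deviations, and correlations were -0.11 to 0.10. For the 6 same-numbered pairs of total and polysome RNA within a line they were 0.012 to 0.058 (median 0.018). The 12 differently numbered pairs within a line had a median of -0.012. The numbers were not taken as pairs, although low correlations cannot show that the libraries were unpaired. Alternatives were DESeq2 1.42.0, limma 3.58.1 on log2(CPM + 1), other scalings and filters, a replicate block, removal of the length trend (lowess, span 0.3), the 6 libraries of a fraction or line alone, and leaving out each library. Near copies were found with minimap2 2.31-r1302 against GRCh38 (at least 95% identity over 50% of the transcript), and gene positions and overlaps were those of GENCODE 44. The pipeline was tested on simulated data. All members could be named. Those called for TE, and the highest and lowest of each role, are given in every library. The 37 genes and the wider list were chosen by symbol, with earlier results of these data known. Intervals from counts of 0 cover counting error only.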

Additional observations from a re-analysis of the deposited data

Results flagged for a closer look

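The polysome-to-total ratio differed between shCtrl and shPRRC2B, by edgeR's test of that difference, in 9 import genes. It was called higher in 14.3% and lower in 11.4% of the import genes tested, beside 10.7% and 16.4% of all genes tested. Among the 9 genes, the log2 difference was 1.28 for HSPE1, 1.26 for TOMM7, 0.77 for TIMM8A, 0.68 for TIMM13 and 0.64 for MTX2, all higher in shPRRC2B. It was -1.82 for GRPEL2, -1.38 for TOMM70, -1.05 for SAMM50 and -0.89 for HSPD1, all lower in shPRRC2B. TOMM7, GRPEL2, TOMM70, SAMM50 and HSPD1 were called under all 24 alternatives tried, HSPE1 under 23, MTX2 under 19, TIMM8A under 15 and TIMM13 under 12. The alternative with no minimum log2 change reuses the same fit at a looser threshold, so each of the 9 calls passes it by construction.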

How the results depend on the processing

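TE-up import genes numbered 5, but 1 with the length trend removed and 2 with that and the replicate block, and 3 to 7 in the fits that left out a library. They numbered 6, with TIMM9 added, with at least 10 counts in every library, scaling by total counts or TMM within each fraction. With every gene of at least 1 count kept they were 4. TE-down genes numbered 4 or 5 under every alternative. Over all genes of each fit, TE-up genes numbered 1285 to 2532 and TE-down genes 1550 to 3716 across the alternatives. The replicate block gave 5 TE-up and 4 TE-down genes, the same as without it, also when set within each line. In total RNA the median was -0.10 under scaling by total counts, 4 genes rose with no minimum log2 change, and 3 to 7 fell in the fits that left out a library. In polysome RNA 8 genes fell and the median was 0.0078 with every gene of at least 1 count kept, and the median was 0.17 with at least 10 counts in every library and 0.14 with limma. With the length trend removed 3 rose and the median was -0.10, and with the replicate block as well 3 and -0.091. With no minimum log2 change 9 rose and 10 fell. Leaving out a library gave 2 to 7 that rose, 5 to 10 that fell and a median of -0.095 to 0.084. Over all genes, the fits that left out a library gave 2493 to 3353 that rose and 3784 to 4647 that fell. In the shCtrl polysome-to-total ratio 1 gene was lower with RLE size factors, with DESeq2 and with only the compared libraries, 4 were lower with the length trend removed, with or without the block (medians 0.88 and 0.87), and 1 or 2 in the fits that left out a library. Scaling by total counts gave 18 higher, 4 lower and a median of 0.56, and TMM within each fraction 17, 4 and 0.55. In shPRRC2B the median ratio was 1.48 with every gene kept, 0.71 under either of these scalings, 1.49 with limma, 0.99 and 1.02 without the length trend (the latter with the block), 1.59 with only the compared libraries and 1.49 to 1.68 in the fits that left out a library.

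The sign of the log2 TE change turned only in genes that were not called. Among the ratios, TOMM70 in shCtrl was 0.064 with the length trend removed and 0.059 with the block as well. For the log2 TE change, TOMM40 was 0.064 with at least 10 counts in every library, 0.050 under scaling by total counts, 0.061 with TMM within each fraction and 0.00054 with the replicate block. GRPEL1 was 0.025, 0.014 and 0.023 under the first 3 of these. DNAJC19 was -0.040 with every gene kept, -0.010 with RLE, -0.0093 with DESeq2, -0.011 with limma and -0.0016 with the block within each line. Without the length trend, and with the block as well, the values were -0.26 and -0.27 for DNAJC19, -0.053 and -0.042 for MTX1, -0.21 and -0.18 for TIMM10, -0.20 and -0.20 for TIMM17B, 0.14 and 0.14 for TIMM50, and 0.065 and 0.064 for PMPCB. In the fits that left out a library, the range was -0.17 to 0.054 for TOMM40, -0.43 to 0.054 for TOMM40L, -0.43 to 0.080 for TOMM34, -0.13 to 0.27 for MTX1, -0.021 to 0.51 for TIMM10, -0.23 to 0.18 for TIMM10B, -0.13 to 0.059 for DNAJC19, -0.26 to 0.049 for GRPEL1 and -0.025 to 0.095 for TIMMDC1. The cause of these shifts was not tested. Counts limit PAM16 and DNAJC15 most, and PAM16 was not called in total RNA by limma (-0.45, adjusted p = 0.269).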
